A study of Mus musculus with 103 samples.

Results

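At E9.5, neuroepithelium and the cranial mesenchyme around it were captured by laser from sections of mouse embryo heads, and their expression profiles were compared. The samples were chosen by their titles: 5 libraries named as E9.5 neuroepithelium and 6 named as E9.5 cranial mesenchyme, 11 of the 103 samples of a craniofacial atlas. A library here is the amplified cDNA of 1 sample hybridised to 1 whole-transcript microarray. All embryos were of the outbred CD1 strain, with the day of the vaginal plug counted as E0.5, and the labels name no allele, treatment or pooling for either group. The comparison at E8.5 used the same strain: 13 libraries of neural epithelium (4 caudal, 4 floor plate and 5 non-floor plate) and 5 of mesenchyme. The labels tie no sample to an embryo and give no level along the head for the captures, so replicates may share an embryo and the p-values may then be too small.

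The neuroepithelium is the wall of the closing neural tube, a sheet of dividing progenitors maintained by SoxB1 factors and Notch signalling and divided along the tube into forebrain, midbrain and hindbrain by local transcription factors and signals. The cranial mesenchyme is loose tissue derived from paraxial mesoderm and from neural crest, which leaves the dorsal edge of the same neuroepithelium. It will build the skull vault, the face, the meninges and the connective tissue of the head, and blood vessels run through it. Twist1, the Foxc factors and the Prrx factors are textbook regulators of this tissue.

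Values are ratios deposited by the authors, each gene relative to its own baseline, here on the log2 scale. A value of 0 is the baseline, 1 is 2-fold above it, and levels cannot be compared between genes. Neuroepithelium values are given in the order of replicates 1 to 5, and mesenchyme values as the lowest, median and highest of 6. A difference is neuroepithelium minus mesenchyme, with its standard error, and a gene is called at an adjusted p under 0.05 in limma.

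In the means of their marker sets the captures followed their labels, with some libraries standing apart. The mean of 8 neuroepithelium markers was 1.21, 0.91, 0.88, 1.04 and 1.29 in neuroepithelium, against -0.81 to 0.80 in mesenchyme. Single markers varied. Sox2 was over 2-fold above baseline in neuroepithelium replicates 1, 3, 4 and 5 and in no mesenchyme library. Fabp7 was so in all 5 neuroepithelium libraries and in mesenchyme replicates 1, 2, 4 and 6. Pax6 was so in neuroepithelium replicates 1 and 2 and in mesenchyme replicates 1, 2 and 4. The mean of 8 mesenchyme markers was -0.62, 0.38, -1.04, -0.81 and -0.87 in neuroepithelium, against 1.71 to 3.01 in mesenchyme. In the mesenchyme libraries, replicates 1, 2 and 4 were above baseline in the mean of neuroepithelium markers (0.46, 0.80 and 0.59). Replicates 3, 5 and 6 were below it (-0.17, -0.81 and -0.22), and every mesenchyme library was below every neuroepithelium library. Neuroepithelium replicate 2 was the neuroepithelium library highest in mesenchyme markers, though below every mesenchyme library. Neuroepithelium replicate 2 was also apart in surface ectoderm genes, of which 7 of 14 were over 2-fold above baseline (Tfap2c and Krt18 among them), against 0 of 14 in each other neuroepithelium library and 0 or 1 in the mesenchyme libraries. Neuroepithelium replicate 1 and mesenchyme replicates 2, 4 and 5 had wider values, with an SD of log2 ratios of 0.593, 0.653, 0.740 and 0.688, against 0.472 to 0.497 in the other 7. Mesenchyme replicate 2 had 2979 genes over 2-fold above baseline and neuroepithelium replicate 1 had 2200, against 494 to 966 elsewhere. Counts are given below with and without these libraries.

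Among the largest differences was that of a microRNA gene that marks neural and endocrine cells. Both mature arms of Mir153 are shown because the array reports the locus, not an arm. RefSeq places them on the forward strand of chromosome 12 (GRCm38.p6), inside the spans of the protein-coding gene Ptprn2 (12:116485695-117278167) and of the non-coding Gm5441 (12:117234521-117337012). Capitals mark the seed, bases 2 to 8, which pairs with target messages. Of the 1679 mature miRNAs in the table, 0 others share either seed.
mmu-miR-153-3p (chr12:117250860-117250881): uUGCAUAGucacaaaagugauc
mmu-miR-153-5p (chr12:117250821-117250843): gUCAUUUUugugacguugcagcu

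The bases before the start of Hes5 and Nrarp, both called and both direct Notch targets in textbook accounts, are shown as the windows in which the core of the RBPJ motif was sought. RBPJ is the DNA-binding partner of activated Notch. The letters TGGGAA were searched on either strand, and capitals mark matches. Of 27025 windows of 250 bases, 5822 (21.5%) hold a match. Sequences are RefSeq's on GRCm38.p6, forward strand, and end at the base before the start. The Hes5 window holds 2 matches, whose first letters lie 226 bases (reverse strand) and 82 bases (forward strand) before the start. The Nrarp window holds 0, which says only that these letters are not in it.
Hes5 (chr4:154960673-154960922): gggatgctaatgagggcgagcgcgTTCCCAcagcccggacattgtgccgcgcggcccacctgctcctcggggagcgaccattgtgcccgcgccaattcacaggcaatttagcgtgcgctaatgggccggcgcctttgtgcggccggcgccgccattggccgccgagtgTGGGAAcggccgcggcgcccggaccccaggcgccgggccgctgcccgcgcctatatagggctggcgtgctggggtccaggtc
Nrarp (chr2:25180508-25180757): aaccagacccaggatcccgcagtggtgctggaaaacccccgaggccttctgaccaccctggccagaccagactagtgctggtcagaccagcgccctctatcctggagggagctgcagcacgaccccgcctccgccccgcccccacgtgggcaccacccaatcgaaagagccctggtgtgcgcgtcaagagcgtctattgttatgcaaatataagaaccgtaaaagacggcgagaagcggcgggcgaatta

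Of 19938 genes tested, 229 (1.15%) differed between neuroepithelium and mesenchyme, 103 (0.517%) higher in neuroepithelium and 126 (0.632%) lower. The difference was at least 2-fold in 174 of the 229, and in 132 the 2 groups of libraries did not overlap (57 higher and 75 lower). Non-overlapping libraries were found in 306 of all genes (1.53%). The median difference over all genes was 0.02. Of all 19938 genes, 1425 had an unadjusted p under 0.05, 10975 differences were above 0 and 8963 were below 0. The counts given for the gene lists below are to be read beside these shares of all genes. The test pools the spread over 22 groups of the series. With the 2 groups fitted alone 68 genes were called, 56 of them among the 229, and without the 4 wide libraries 150 were called, 130 of them among the 229. Leaving out neuroepithelium replicate 2 gave 230.

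Among the 12 genes named for the largest non-overlapping increase in neuroepithelium were the transcription factors Tal2, Pou3f4, Nkx2-9, Otx2 and Sox2, the chemokine Ccl19 and the neuronal filament gene Ina. Pou3f4, a POU-domain factor of the neural tube and inner ear, had log2 ratios of 2.54, 3.95, 3.95, 4.35 and 4.79 in neuroepithelium, against a lowest of -0.31, a median of -0.04 and a highest of 0.29 in mesenchyme. All neuroepithelium libraries were far above all mesenchyme libraries, and the difference was 3.93 ± 0.42 (SE, adjusted p = 1.1e-10). Tal2, a bHLH factor needed for midbrain GABAergic neurons, had 2.39, 2.61, 4.36, 5.02 and 4.23 in neuroepithelium, against a lowest of -0.90, a median of -0.71 and a highest of -0.22 in mesenchyme. Replicates 1 and 2 were the lower ones of neuroepithelium, still above every mesenchyme library, and the difference was 4.37 ± 0.64 (SE, adjusted p = 1.8e-06).

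Nkx2-9, a ventral neural homeobox gene, had 2.20, 2.69, 4.78, 4.47 and 3.11 in neuroepithelium, against a lowest of -0.61, a median of -0.37 and a highest of -0.30 in mesenchyme, a difference of 3.88 ± 0.52 (SE, adjusted p = 1.5e-07). Otx2, which specifies forebrain and midbrain, had 3.86, 3.07, 3.32, 3.60 and 3.24 in neuroepithelium, against a lowest of -0.93, a median of -0.22 and a highest of 1.69 in mesenchyme, a difference of 3.44 ± 0.52 (SE, adjusted p = 3e-06). Unlike the genes split between libraries described below, Otx2 was even across the 5 neuroepithelium libraries. Sox2, the SoxB1 factor that keeps neural progenitors, had 1.89, 0.93, 1.43, 1.56 and 1.61 in neuroepithelium, against a lowest of -4.54, a median of -1.13 and a highest of 0.32 in mesenchyme. The groups did not overlap, the mesenchyme libraries were widely spread, and the difference was 3.11 ± 0.68 (SE, adjusted p = 0.0033).

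Ccl19, a chemokine, had 3.21, 3.73, 4.79, 5.15 and 4.90 in neuroepithelium, against a lowest of -0.55, a median of -0.29 and a highest of 1.90 in mesenchyme, a difference of 4.09 ± 0.70 (SE, adjusted p = 5.6e-05). The mouse genome holds near-identical copies of Ccl19, so its probes may report several loci. The other called genes with the largest non-overlapping differences were Ina, an intermediate filament of young neurons (difference 3.63 ± 0.67), Scrn1 (2.96 ± 0.46), Stmn3, a microtubule regulator of neurons (2.93 ± 0.54), Scg5, a chaperone of prohormone convertase (2.91 ± 0.54), Cntfr, the binding subunit of the ciliary neurotrophic factor receptor (2.86 ± 0.57), and Ptn, a heparin-binding growth factor (2.80 ± 0.59). Their adjusted p-values were 2e-04, 7.7e-06, 0.00021, 0.00022, 0.00082 and 0.0017 in that order. With the 2 groups fitted alone, Sox2 was not called (adjusted p = 0.34).

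Mir153 had 5.60, 6.18, 5.73, -0.05 and 6.99 in neuroepithelium, against a lowest of -0.42, a median of -0.24 and a highest of 0.59 in mesenchyme. Replicate 4 of neuroepithelium was among the mesenchyme values while the other 4 were far above them, so the groups overlapped, and the difference was 5.00 ± 0.95 (SE, adjusted p = 0.00034). The adjusted p with the groups fitted alone was 0.12. Its host Ptprn2, a protein tyrosine phosphatase-like protein of dense-core vesicles, differed by -0.07 ± 0.10 (adjusted p = 1) and was not called. Mir153, Ptprn2 and the genes marked so below were singled out after their values were seen.

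**Figure D1:**
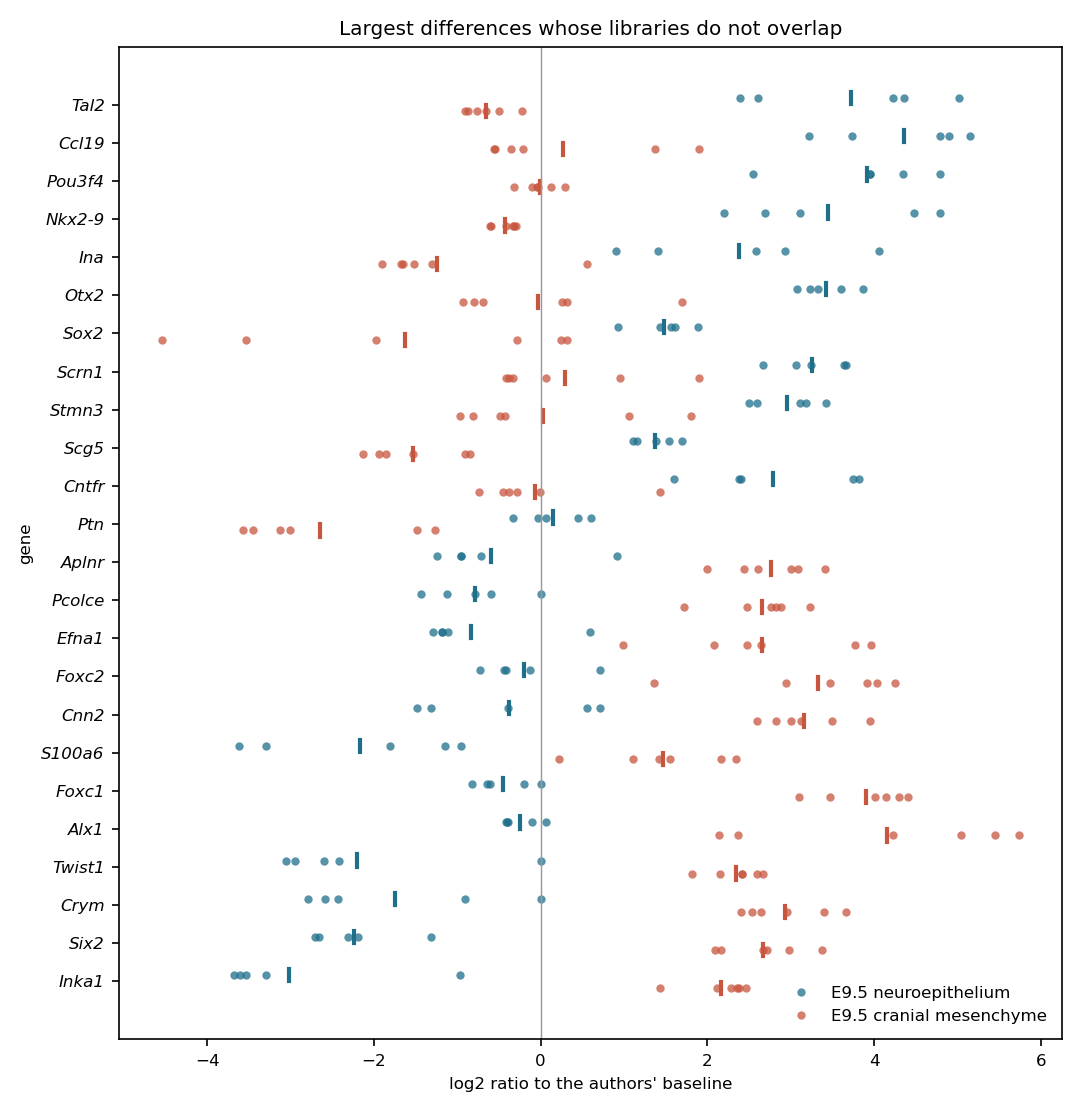
Log2 ratio to the authors' baseline (x axis) of the 24 genes of largest difference among those called whose libraries do not overlap (y axis), 12 in each direction. Points are libraries, 5 of neuroepithelium and 6 of cranial mesenchyme, and vertical bars are group means. Tal2 is at the top (difference 4.37) and Inka1 at the bottom (difference -5.18), where 1 neuroepithelium library, replicate 2, lies nearer to the mesenchyme than the other 4.

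Of the neural progenitor list, 1 of 14 measured genes was called higher in neuroepithelium (Sox2) and 0 lower, where 0.517% and 0.632% of all genes were. The median difference of the list was 0.69, 13 of 14 differences were above 0, and 6 had an unadjusted p under 0.05. Among all 19938 genes these counts were 10975 and 1425. The mean over the list was 1.13, 0.88, 0.63, 0.69 and 0.98 in neuroepithelium, against a range of -0.63 to 0.64 in mesenchyme. The groups overlapped, with mesenchyme replicate 4 (0.64) above neuroepithelium replicate 3, and mesenchyme replicate 2 next at 0.46. Of the proneural and neuronal list, 0 of 19 were called in limma, with 8 at an unadjusted p under 0.05 and a median difference of 0.20. Without neuroepithelium replicate 2, 2 of the 19 were called higher, the proneural bHLH genes Neurog2 and Neurod4, named after their values were seen. Tubb3, the neuronal beta-tubulin, had the largest difference of that list, 2.55 ± 0.90 (SE, adjusted p = 0.24). Fabp7, a fatty acid-binding protein of radial glia named after its values were seen, differed by 2.43 ± 0.90 (SE, adjusted p = 0.29).

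Pou3f2, Tubb2b and Car4 were called and were likewise named after their values were seen. Pou3f2, another POU factor of neural cells, had 1.83, 1.06, 4.83, 5.28 and 5.03 in neuroepithelium, against a lowest of -0.14, a median of -0.08 and a highest of 3.48 in mesenchyme, a difference of 3.07 ± 0.71 (SE, adjusted p = 0.007). Mesenchyme replicate 4 alone was high among the mesenchyme libraries, above neuroepithelium replicates 1 and 2. Tubb2b, a beta-tubulin of migrating neurons, differed by 2.61 ± 0.69 (SE, adjusted p = 0.031), and Car4, a membrane carbonic anhydrase, by 3.36 ± 0.60 (SE, adjusted p = 9.7e-05). Fitted alone, the groups gave no call for Pou3f2 or Car4 (adjusted p = 0.41 and 0.093). Pou3f2 was not called without neuroepithelium replicate 3, 4 or 5 (adjusted p = 0.05 after rounding, 0.064 and 0.061), and Tubb2b was not called when any 1 of neuroepithelium replicates 1, 3, 4 and 5 and mesenchyme replicates 1, 5 and 6 was left out (adjusted p of 0.057 to 0.1), nor without the 4 wide libraries (0.1).

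Of the Notch pathway list, 3 of 19 were called, all higher in neuroepithelium (Hes5, Nrarp and Dtx4), with a median difference of 0.21 and 7 at an unadjusted p under 0.05. The share of all genes called higher was 0.517%. Hes5, the bHLH repressor that Notch induces in progenitors and whose window is printed above, had 2.11, 2.46, 2.15, 2.27 and 1.85 in neuroepithelium, against a lowest of -0.79, a median of -0.34 and a highest of 0.76 in mesenchyme. The 5 neuroepithelium libraries lay within a narrow range above every mesenchyme library, and the difference was 2.33 ± 0.38 (SE, adjusted p = 2.5e-05). Nrarp, a feedback inhibitor of Notch, had 1.83, 1.58, 1.93, 1.78 and 1.98 in neuroepithelium, against a lowest of -1.03, a median of 0.06 and a highest of 0.86 in mesenchyme, a difference of 1.85 ± 0.39 (SE, adjusted p = 0.0018). Dtx4, an E3 ubiquitin ligase of the Deltex family, had 1.55, 0.87, 1.21, 1.78 and 1.79 in neuroepithelium, against a lowest of -0.53, a median of -0.03 and a highest of 0.59 in mesenchyme, a difference of 1.49 ± 0.35 (SE, adjusted p = 0.0071). None of the 3 overlapped between groups. Without the 4 wide libraries Dtx4 was not called (adjusted p = 0.096).

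The neuroepithelium libraries differed among themselves in the regulators that divide the brain along its length. Of 15 forebrain regulators, 10, 10, 1, 1 and 1 were over 2-fold above baseline in neuroepithelium replicates 1 to 5, against 0 to 7 in mesenchyme libraries. Of all genes, 11.03% were over 2-fold above baseline in neuroepithelium replicate 1 and 3.48% to 3.99% in the other 4, against 14.94% in mesenchyme replicate 2, which had the 7, and 2.48% to 4.85% in the other 5 mesenchyme libraries. Of 13 midbrain-hindbrain regulators, 0, 1, 8, 5 and 7 were, against 0 in every mesenchyme library. Replicates 1 and 2 were thus high in forebrain genes, and replicates 3, 4 and 5 in midbrain-hindbrain genes. No test was made between these libraries, since they are replicates of 1 group.

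Of the forebrain list 1 of 15 was called, Otx2, higher in neuroepithelium, where 0.517% of all genes were. The list's median difference was 0.49. The genes behind the split were named after their values were seen. Six3, which sets the anterior forebrain, had 2.35, 2.52, -0.53, -0.62 and -0.65 in neuroepithelium, against a lowest of -0.58, a median of -0.07 and a highest of 0.53 in mesenchyme. Rax, a gene of the eye field and hypothalamus, had 2.34, 3.98, -0.20, -0.21 and -0.22 in neuroepithelium, against a lowest of -0.39, a median of -0.14 and a highest of 1.04 in mesenchyme. Both were high in replicates 1 and 2 and at or below baseline in the other 3, and neither passed the test between the groups (adjusted p = 0.89 and 0.75).

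Six6, of the eye field and pituitary, had 1.48, 4.39, -0.12, 0.04 and -0.13 in neuroepithelium, against a lowest of -0.14, a median of 0.25 and a highest of 2.31 in mesenchyme (difference 0.65 ± 0.60, adjusted p = 0.99). Emx2, of the dorsal telencephalon, had 3.03, 0.61, 0.06, 0.07 and -0.07 in neuroepithelium, against a lowest of -0.07, a median of 0.07 and a highest of 1.56 in mesenchyme (difference 0.45 ± 0.39, adjusted p = 0.98). In both, mesenchyme replicate 2 was the highest mesenchyme library, and 1 neuroepithelium library set the direction: without replicate 2 the Six6 difference was -0.17, and without replicate 1 the Emx2 difference was -0.13. Mesenchyme replicate 2 had 7 of the 15 forebrain genes over 2-fold above baseline, and its mean over the list was 0.64, against -0.11 to 0.46 in the other 5 mesenchyme libraries. Its part in the differences of forebrain genes was not tested beyond leaving it out.

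Of the midbrain-hindbrain list 3 of 13 were called, all higher in neuroepithelium (Fgf17, En2 and Cnpy1), with a median difference of 0.98. En2, a homeobox gene of the midbrain and cerebellar territory, had 0.03, -0.10, 4.52, 4.15 and 4.68 in neuroepithelium, against a lowest of -0.25, a median of -0.07 and a highest of 0.12 in mesenchyme, a difference of 2.72 ± 0.36 (SE, adjusted p = 1.2e-07). Cnpy1, an FGF modulator expressed at the midbrain-hindbrain boundary of zebrafish, had -0.20, -0.15, 3.88, 1.30 and 3.66 in neuroepithelium, against a lowest of -0.37, a median of -0.02 and a highest of 0.18 in mesenchyme, a difference of 1.74 ± 0.29 (SE, adjusted p = 4e-05). In both, replicates 1 and 2 overlapped the mesenchyme libraries.

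Fgf17, an FGF of the same boundary, had -0.39, 4.42, 3.79, 0.47 and 4.88 in neuroepithelium, against a lowest of -0.60, a median of -0.22 and a highest of 0.13 in mesenchyme, a difference of 2.86 ± 0.76 (SE, adjusted p = 0.031). It was high in replicates 2, 3 and 5. A further 4 boundary genes named after their values were seen did not pass: Fgf8, the organiser signal (1.62 ± 0.46, adjusted p = 0.06), Wnt1 (1.31 ± 0.40, adjusted p = 0.11), En1 (0.73 ± 0.21, adjusted p = 0.062) and Pax8 (0.98 ± 0.27, adjusted p = 0.05 after rounding). Without neuroepithelium replicate 2, 6 of the 13 were called higher, with En1, Pax8 and Wnt1 among them and Fgf17 not, and without mesenchyme replicate 2 En2 and Cnpy1 were. Fgf17 was not called when any 1 of neuroepithelium replicates 2, 3 and 5 and mesenchyme replicates 2, 3 and 4 was left out (adjusted p of 0.05 to 0.26). None of Fgf17, En2 and Cnpy1 was called with the groups fitted alone (adjusted p = 0.42, 0.47 and 0.66).

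Ventral genes were split between the same libraries by their level, though not by their number. Of 12 ventral midline regulators, 3, 3, 3, 5 and 3 were over 2-fold above baseline in neuroepithelium replicates 1 to 5, against 0 in every mesenchyme library. The members differed, with Nkx2-1 among them in replicates 1 and 2, Nkx6-1 in replicates 3, 4 and 5, and Nkx2-9 in all 5. The mean over the list was 0.26, 0.44, 1.15, 1.52 and 0.83 in neuroepithelium, against -0.45 to 0.03 in mesenchyme. Of the 12, 4 were called, all higher in neuroepithelium (Nkx2-9, Nkx6-1, Nkx6-2 and Dbx1), the median difference was 0.49, and 12 of 12 differences were above 0. Nkx6-2, a homeobox gene of ventral progenitors, had 0.54, 1.12, 2.91, 2.93 and 2.31 in neuroepithelium, against a lowest of -0.34, a median of 0.05 and a highest of 0.56 in mesenchyme, a difference of 1.86 ± 0.25 (SE, adjusted p = 1.5e-07). Nkx6-1, of motor neuron and ventral interneuron progenitors, had -0.49, 0.01, 3.47, 3.21 and 3.56 in neuroepithelium, against a lowest of -0.69, a median of -0.20 and a highest of 0.25 in mesenchyme, a difference of 2.14 ± 0.43 (SE, adjusted p = 0.00095). It was high in replicates 3, 4 and 5 and within the mesenchyme range in replicates 1 and 2, while Nkx6-2 overlapped the mesenchyme in replicate 1 alone.

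Dbx1, of interneuron progenitors at the middle of the dorsoventral axis, differed by 1.31 ± 0.29 (SE, adjusted p = 0.0047) and was not called without neuroepithelium replicate 4 (adjusted p = 0.071) or without the 4 wide libraries (0.15). Nkx6-1, Nkx6-2 and Dbx1 were not called with the groups fitted alone (adjusted p = 0.51, 0.19 and 0.093). Of 11 dorsal neural regulators 0 were called in limma, with 2 at an unadjusted p under 0.05 and a median difference of -0.01. Msx1, a homeobox gene of the dorsal midline and also of facial mesenchyme, had the largest difference of these, -1.45 ± 0.52 (SE, adjusted p = 0.26).

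**Figure D2:**
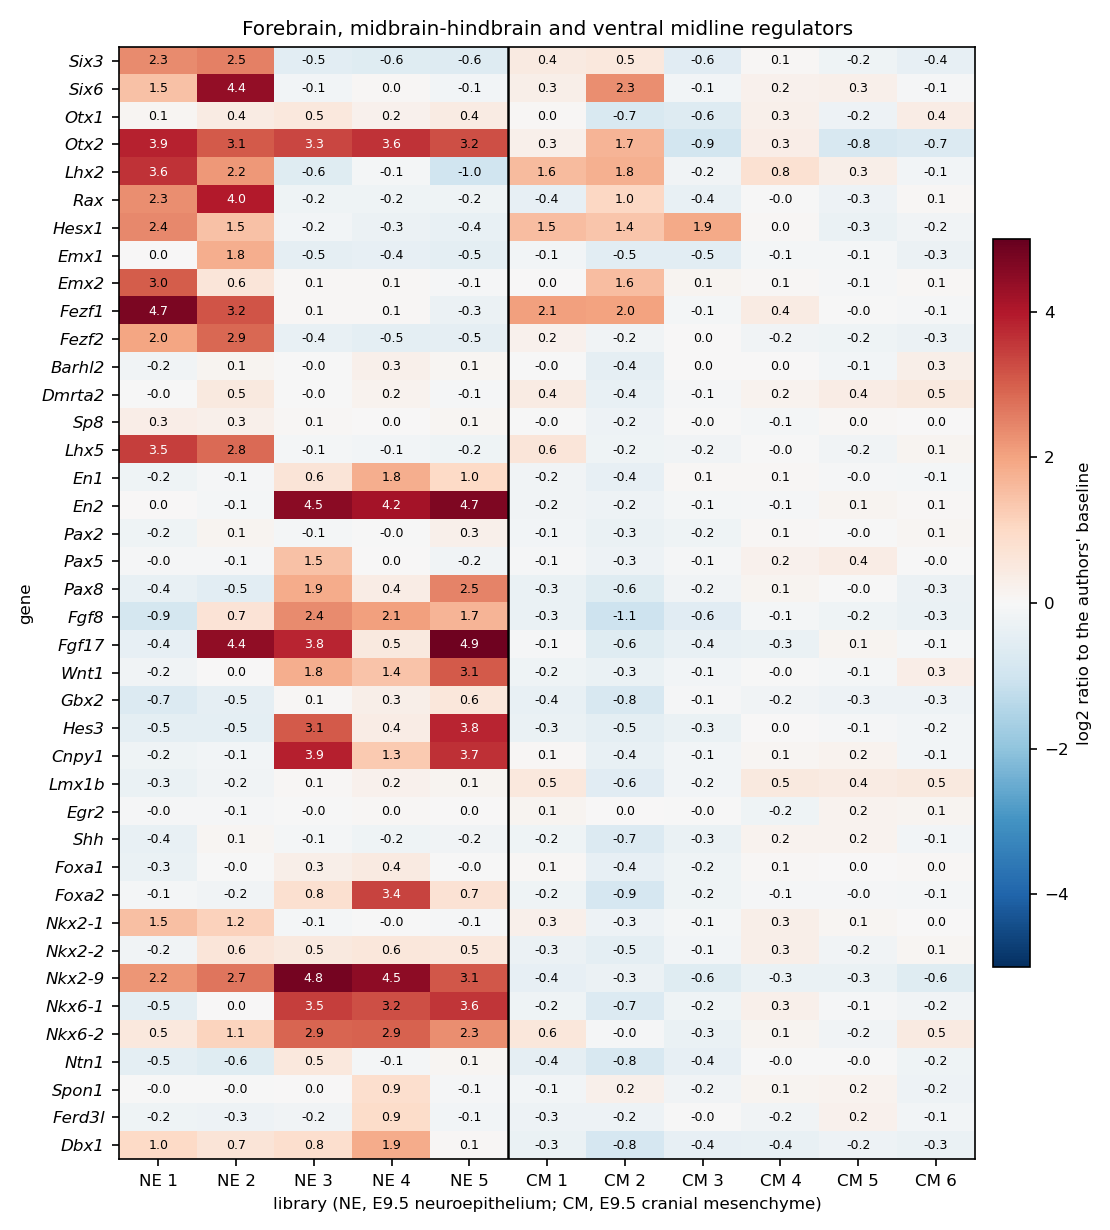
Log2 ratio to the authors' baseline (colour and printed value) of the measured forebrain, midbrain-hindbrain and ventral midline regulators (y axis, in that order) in each library (x axis), neuroepithelium replicates 1 to 5 left of the line and cranial mesenchyme replicates 1 to 6 right of it. Six3 and Rax are high in neuroepithelium replicates 1 and 2, En2 in replicates 3, 4 and 5, and Otx2 in all 5.

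Among the 12 genes named for the largest non-overlapping decrease in neuroepithelium, the 6 with the largest differences were, in order, Inka1, Six2, Crym, Twist1, Alx1 and Foxc1, of which Six2, Twist1, Alx1 and Foxc1 are transcription factors. Of 23 head mesenchyme genes 0 were called higher and 7 lower in neuroepithelium (Twist1, Foxc1, Foxc2, Lum, Snai1, Prrx1 and Prrx2), with a median difference of -0.73 and 13 at an unadjusted p under 0.05. Twist1, the bHLH factor mutated in Saethre-Chotzen craniosynostosis, had -2.60, 0.00, -2.95, -2.42 and -3.05 in neuroepithelium, against a lowest of 1.81, a median of 2.42 and a highest of 2.67 in mesenchyme, a difference of -4.55 ± 0.60 (SE, adjusted p = 1.5e-07). Neuroepithelium replicate 2 was well above the other 4 and below every mesenchyme library.

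Foxc1, a forkhead factor needed for the skull vault and meninges, had -0.65, 0.00, -0.61, -0.82 and -0.20 in neuroepithelium, against a lowest of 3.10, a median of 4.08 and a highest of 4.41 in mesenchyme, a difference of -4.36 ± 0.55 (SE, adjusted p = 3.1e-08). Foxc2, its close relative, had -0.13, 0.71, -0.73, -0.44 and -0.41 in neuroepithelium, against a lowest of 1.36, a median of 3.69 and a highest of 4.25 in mesenchyme, a difference of -3.53 ± 0.65 (SE, adjusted p = 0.00019). Both were without overlap. Lum, a small leucine-rich proteoglycan that binds collagen fibrils, differed by -3.33 ± 0.60 (SE, adjusted p = 0.00012).

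Snai1, Prrx1 and Prrx2 were named after their values were seen. Snai1, a repressor of epithelial adhesion genes, differed by -2.97 ± 0.42 (SE, adjusted p = 5.5e-07). Prrx1 and Prrx2, homeobox factors of limb and head mesenchyme, differed by -2.23 ± 0.48 (SE, adjusted p = 0.0026) and -1.89 ± 0.50 (SE, adjusted p = 0.032). Without mesenchyme replicate 2, the list had Zeb2, a repressor of epithelial genes named after its values were seen, called higher and 6 called lower. Prrx2 was not called when any 1 of neuroepithelium replicates 3, 4 and 5 and mesenchyme replicates 1, 2 and 6 was left out (adjusted p of 0.059 to 0.18), nor without the 4 wide libraries (0.1). Lum, Prrx1 and Prrx2 were not called with the groups fitted alone (adjusted p = 0.11, 0.32 and 0.081).

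Of 6 frontonasal mesenchyme genes 3 were called, all lower in neuroepithelium (Six2, Alx1 and Tfap2b), and the median difference was -1.99. Six2, a homeobox gene of frontonasal and nephron progenitors, had -2.65, -1.32, -2.71, -2.19 and -2.31 in neuroepithelium, against a lowest of 2.09, a median of 2.69 and a highest of 3.37 in mesenchyme, a difference of -4.90 ± 0.50 (SE, adjusted p = 5.7e-11). Alx1, whose loss causes frontonasal dysplasia in humans, had -0.39, -0.10, -0.41, 0.06 and -0.40 in neuroepithelium, against a lowest of 2.14, a median of 4.63 and a highest of 5.74 in mesenchyme, a difference of -4.41 ± 0.52 (SE, adjusted p = 6.8e-09). Neither overlapped. Tfap2b, an AP-2 factor, had -0.38, 0.16, -0.34, 0.79 and 0.08 in neuroepithelium, against a lowest of 0.52, a median of 4.44 and a highest of 5.16 in mesenchyme, a difference of -3.65 ± 0.64 (SE, adjusted p = 7.8e-05). Neuroepithelium replicate 4 overlapped the lowest mesenchyme library, and the adjusted p with the groups fitted alone was 0.12.

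Of 11 neural crest genes, Sox9 was called lower in neuroepithelium and 0 higher, with a median difference of -0.51. The share of all genes called lower was 0.632%. Sox9, a factor of crest and cartilage, differed by -1.17 ± 0.30 (SE, adjusted p = 0.024) and was not called when any 1 of neuroepithelium replicates 3, 4 and 5 and mesenchyme replicates 2 and 3 was left out (adjusted p of 0.06 to 0.16), nor with the groups fitted alone (0.27) or without the 4 wide libraries (0.086). Neural crest also arises from the neuroepithelium, so its genes are not markers of either capture alone.

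The other 7 genes named for the size of their decrease in neuroepithelium belong to none of the lists. Inka1, an inhibitor of the PAK4 kinase, had -3.53, -0.97, -3.61, -3.29 and -3.68 in neuroepithelium, against a lowest of 1.43, a median of 2.32 and a highest of 2.46 in mesenchyme, a difference of -5.18 ± 0.68 (SE, adjusted p = 1.3e-07). Crym, a thyroid hormone-binding crystallin, had -2.79, 0.00, -2.59, -2.42 and -0.91 in neuroepithelium, against a lowest of 2.40, a median of 2.80 and a highest of 3.67 in mesenchyme, a difference of -4.68 ± 0.78 (SE, adjusted p = 3.9e-05). In both, neuroepithelium replicate 2 was the one nearest the mesenchyme. S100a6, a calcium-binding protein, differed by -3.63 ± 0.67 (SE, adjusted p = 0.00019).

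Cnn2, an actin-binding calponin, differed by -3.55 ± 0.90 (SE, adjusted p = 0.02), and Efna1, a ligand of Eph receptors, by -3.49 ± 0.61 (SE, adjusted p = 7.4e-05). Pcolce, which enhances the processing of procollagen, had -1.44, 0.00, -0.59, -1.12 and -0.79 in neuroepithelium, against a lowest of 1.72, a median of 2.79 and a highest of 3.24 in mesenchyme, a difference of -3.44 ± 0.46 (SE, adjusted p = 1.7e-07). Aplnr, the apelin receptor, known from endothelial precursors, differed by -3.35 ± 0.46 (SE, adjusted p = 3.2e-07). Of these 7, Cnn2 was not called without neuroepithelium replicate 3 or 5 or mesenchyme replicate 2 (adjusted p = 0.081, 0.093 and 0.057), and without the 4 wide libraries neither Cnn2 (0.18) nor Efna1 (0.1) was.

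Of 21 collagen genes 6 were called, all lower in neuroepithelium (Col1a2, Col3a1, Col26a1, Col13a1, Col23a1 and Col4a1), and 10 had an unadjusted p under 0.05. The list's median difference was -0.27. Col1a2, a chain of fibrillar type I collagen, had -0.53, 0.14, -0.71, -0.39 and -0.43 in neuroepithelium, against a lowest of 0.62, a median of 1.73 and a highest of 2.77 in mesenchyme, without overlap, and the difference was -2.12 ± 0.26 (SE, adjusted p = 3.1e-08). Col3a1, of type III collagen, differed by -1.38 ± 0.24 (SE, adjusted p = 9.4e-05), Col26a1 by -1.13 ± 0.28 (SE, adjusted p = 0.018) and Col13a1, a transmembrane collagen, by -1.01 ± 0.17 (SE, adjusted p = 3.9e-05).

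Col23a1, also transmembrane, and Col4a1, of basement membranes, differed by -0.93 ± 0.21 (SE, adjusted p = 0.0049) and -0.61 ± 0.13 (SE, adjusted p = 0.0024), and were named after their values were seen. Of 22 other matrix genes 2 were called, Nid1 and Nid2, the nidogens that link laminin to type IV collagen. Both were lower in neuroepithelium, with differences of -0.67 ± 0.17 (SE, adjusted p = 0.016) and -0.92 ± 0.22 (SE, adjusted p = 0.011). Nid1 was not called without mesenchyme replicate 4 or 5 (adjusted p = 0.16 and 0.18), Nid2 without mesenchyme replicate 2 (0.12), and Col26a1 without mesenchyme replicate 2 or 3 (0.11 and 0.074). With the groups fitted alone Col1a2 and Col23a1 were the called ones of these 8, and without the 4 wide libraries Col1a2 and Col13a1 were.

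Signals and receptors differed in small numbers. Of 18 FGF pathway genes 2 were called, both higher in neuroepithelium, with a median difference of 0.06. Fgf15, an FGF of the neural tube, had 2.59, 0.86, 2.46, 3.05 and 2.43 in neuroepithelium, against a lowest of -0.96, a median of -0.39 and a highest of 0.11 in mesenchyme, a difference of 2.74 ± 0.41 (SE, adjusted p = 3e-06). Neuroepithelium replicate 2 was lower than the other 4 and above every mesenchyme library. Fgf18 had -0.04, 1.69, 4.13, 0.50 and 3.86 in neuroepithelium, against a lowest of -0.23, a median of -0.13 and a highest of 0.19 in mesenchyme, a difference of 2.11 ± 0.48 (SE, adjusted p = 0.005). Fgf18 was highest in replicates 3 and 5, and was not called without either (adjusted p = 0.11 and 0.1). Unlike En2 and Cnpy1, it was higher in replicate 2 than in replicate 4.

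Of 24 WNT pathway genes 2 were called higher in neuroepithelium and 1 lower, with a median difference of 0.29 and 8 at an unadjusted p under 0.05. Fzd9, a WNT receptor, had 1.43, 1.44, 2.23, 1.95 and 2.44 in neuroepithelium, against a lowest of -0.41, a median of 0.08 and a highest of 0.45 in mesenchyme, a difference of 1.82 ± 0.45 (SE, adjusted p = 0.014). Wnt7a, a ligand of the neural tube, differed by 1.08 ± 0.22 (SE, adjusted p = 0.0011), and Dkk3, a Dickkopf-family secreted protein, by -0.67 ± 0.17 (SE, adjusted p = 0.024). Fzd9 was not called without neuroepithelium replicate 3 or 5 (adjusted p = 0.052 and 0.069), and Dkk3 was not called without neuroepithelium replicate 1 or 3 or mesenchyme replicate 2 or 3 (adjusted p of 0.063 to 0.3).

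Of 13 PDGF, chemokine and vascular signal genes, the chemokine Cxcl12 was lower in neuroepithelium and its receptor Cxcr4 higher. Cxcl12, which guides crest cells, neurons and vessels, had -0.27, -0.52, -0.33, -0.47 and -0.36 in neuroepithelium, against a lowest of -0.01, a median of 1.60 and a highest of 1.86 in mesenchyme, a difference of -1.77 ± 0.35 (SE, adjusted p = 0.00064). Mesenchyme replicate 5 was near baseline and the other 5 were above it. Cxcr4 had -0.43, 0.20, 0.65, 0.91 and 1.93 in neuroepithelium, against a lowest of -0.99, a median of -0.65 and a highest of 0.13 in mesenchyme, a difference of 1.17 ± 0.32 (SE, adjusted p = 0.036). The groups overlapped, and Cxcr4 was not called when any 1 of neuroepithelium replicates 3, 4 and 5 and mesenchyme replicates 1, 2, 4 and 6 was left out (adjusted p of 0.061 to 0.38).

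Of 19 BMP and TGF-beta pathway genes 1 was called, Id4, an inhibitor of bHLH factors, higher in neuroepithelium by 1.64 ± 0.35 (SE, adjusted p = 0.0027), and the list's median difference was 0.01. The share of all genes called higher was 0.517%. In the Hedgehog (11 genes), retinoic acid (13), ephrin and axon guidance (23), cadherin (14) and epithelial polarity (16) lists 0 were called in limma, with 0, 3, 1, 4 and 3 at an unadjusted p under 0.05. The largest differences of these lists that did not pass include 1.60 ± 0.51 for Efna2, -1.04 ± 0.29 for the retinoic acid receptor Rarg and -2.14 ± 0.75 for the claudin Cldn10. Efna1, called lower and described above, is an ephrin that this list does not hold. With the groups fitted alone none of Fgf18, Wnt7a, Dkk3, Id4 and Cxcr4 was called (adjusted p of 0.11 to 0.68), and without the 4 wide libraries neither Fzd9 nor Wnt7a was (0.1 and 0.22).

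The mesenchyme libraries carried vessel and blood genes, and in tissue captures fewer cells of a type and less RNA per cell cannot be told apart. Of 17 endothelial genes 5 were called, all lower in neuroepithelium (Cldn5, Egfl7, Esam, Plvap and Eng), 17 of 17 differences were below 0, and the median was -0.64. The mean over the list was -0.34 to 0.00 in neuroepithelium libraries, against 0.60 to 1.58 in mesenchyme libraries. The part of vessels in the other genes lower in neuroepithelium was not tested. Cldn5, the tight junction claudin of endothelium, had -2.09, 0.39, 0.13, -0.16 and -0.80 in neuroepithelium, against a lowest of 1.18, a median of 2.77 and a highest of 3.42 in mesenchyme, a difference of -3.10 ± 0.53 (SE, adjusted p = 5.6e-05). The groups did not overlap.

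Egfl7, a secreted endothelial protein, differed by -2.33 ± 0.48 (SE, adjusted p = 0.0014), Esam, an endothelial adhesion molecule, by -2.13 ± 0.37 (SE, adjusted p = 8.8e-05), and Plvap, of endothelial fenestrae, by -1.64 ± 0.28 (SE, adjusted p = 3.9e-05). Eng, a TGF-beta co-receptor named after its values were seen, differed by -1.31 ± 0.29 (SE, adjusted p = 0.0028) and was not called without mesenchyme replicate 2 (adjusted p = 0.055). With the groups fitted alone Cldn5 alone of the 5 was called (the others at adjusted p of 0.062 to 0.54), and without the 4 wide libraries Cldn5, Esam and Eng were not (0.15, 0.053 and 0.086).

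Of 8 measured erythroid genes 3 were called, all lower in neuroepithelium (Klf1, Alas2 and Gata1), 8 of 8 differences were below 0, and the median was -1.31. The mean over the list was -0.89 to 0.28 in neuroepithelium, highest in replicate 2, against 0.63 to 1.69 in mesenchyme. Klf1, the erythroid Kruppel-like factor, had -0.63, 1.55, -0.996, -1.25 and -0.72 in neuroepithelium, against a lowest of 0.05, a median of 2.94 and a highest of 3.35 in mesenchyme, a difference of -2.72 ± 0.45 (SE, adjusted p = 3.6e-05). Alas2, the first enzyme of erythroid heme synthesis, had -0.36, 1.30, -0.32, -0.28 and -0.29 in neuroepithelium, against a lowest of 0.52, a median of 2.72 and a highest of 3.91 in mesenchyme, a difference of -2.66 ± 0.48 (SE, adjusted p = 0.00015). In both, neuroepithelium replicate 2 was the high one and overlapped the mesenchyme. Gata1, the master regulator of red cells and megakaryocytes, differed by -1.43 ± 0.33 (SE, adjusted p = 0.0058) and was not called without mesenchyme replicate 1 or 2 (adjusted p = 0.068 and 0.08).

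A further 5 genes, named after their values were seen and belonging to no list, were called lower in neuroepithelium. Pf4, the platelet factor chemokine, had -0.47, -0.14, -0.39, -0.29 and -0.43 in neuroepithelium, against a lowest of -0.53, a median of 4.14 and a highest of 5.33 in mesenchyme, a difference of -3.90 ± 0.83 (SE, adjusted p = 0.0022). Mesenchyme replicate 4 was at the level of neuroepithelium, and the other 5 mesenchyme libraries were between 3.88 and 5.33. Gp9, a subunit of the platelet von Willebrand factor receptor, had 0.01, 0.42, 0.13, 0.14 and 0.09 in neuroepithelium, against a lowest of 0.06, a median of 2.97 and a highest of 4.23 in mesenchyme, a difference of -2.25 ± 0.48 (SE, adjusted p = 0.0024).

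Clec1b, a lectin receptor of platelets, differed by -2.39 ± 0.44 (SE, adjusted p = 0.00019), Itga2b, the integrin of the fibrinogen receptor, by -0.88 ± 0.20 (SE, adjusted p = 0.004), and Gfi1b, a repressor of erythroid and megakaryocyte cells, by -0.70 ± 0.18 (SE, adjusted p = 0.031). Itga2b was not called without mesenchyme replicate 3 (adjusted p = 0.069), and Gfi1b was not called without neuroepithelium replicate 1 or 2 or mesenchyme replicate 1 or 2 (adjusted p of 0.068 to 0.31), nor without the 4 wide libraries (0.33). With the groups fitted alone, none of these 5 nor Klf1, Alas2 and Gata1 was called (adjusted p of 0.14 to 0.67). Of 12 macrophage genes 0 were called in limma, with 1 at an unadjusted p under 0.05, and their mean was -0.06 to 0.00 in neuroepithelium, against 0.08 to 0.26 in mesenchyme.

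In 8 further lists 0 genes were called in limma: surface ectoderm (14 genes), cranial muscle precursor (9), otic (10), pharyngeal arch mesenchyme (12), cell cycle (18), immediate early (10), Lin28 and stem-cell-like (11) and glycolysis and hypoxia (16). The unadjusted p was under 0.05 for 2 glycolysis and hypoxia genes and for 0 of each of the other 7 lists. Krt18, a keratin of simple epithelia, had the largest surface ectoderm difference, 1.15 ± 0.75 (SE, adjusted p = 0.91), with 0.08, 1.35, -2.76, -1.83 and -2.37 in neuroepithelium, against a lowest of -4.19, a median of -2.01 and a highest of 0.34 in mesenchyme. Neuroepithelium replicates 1 and 2 were above the other 3. Tfap2c, an AP-2 factor of surface ectoderm named after its values were seen, had 0.07, 2.90, -0.49, 0.25 and -0.46 in neuroepithelium, against a lowest of -0.35, a median of -0.14 and a highest of 0.77 in mesenchyme. Replicate 2 alone was high, and without it the difference was -0.12, against 0.49 with it.

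**Figure D3:**
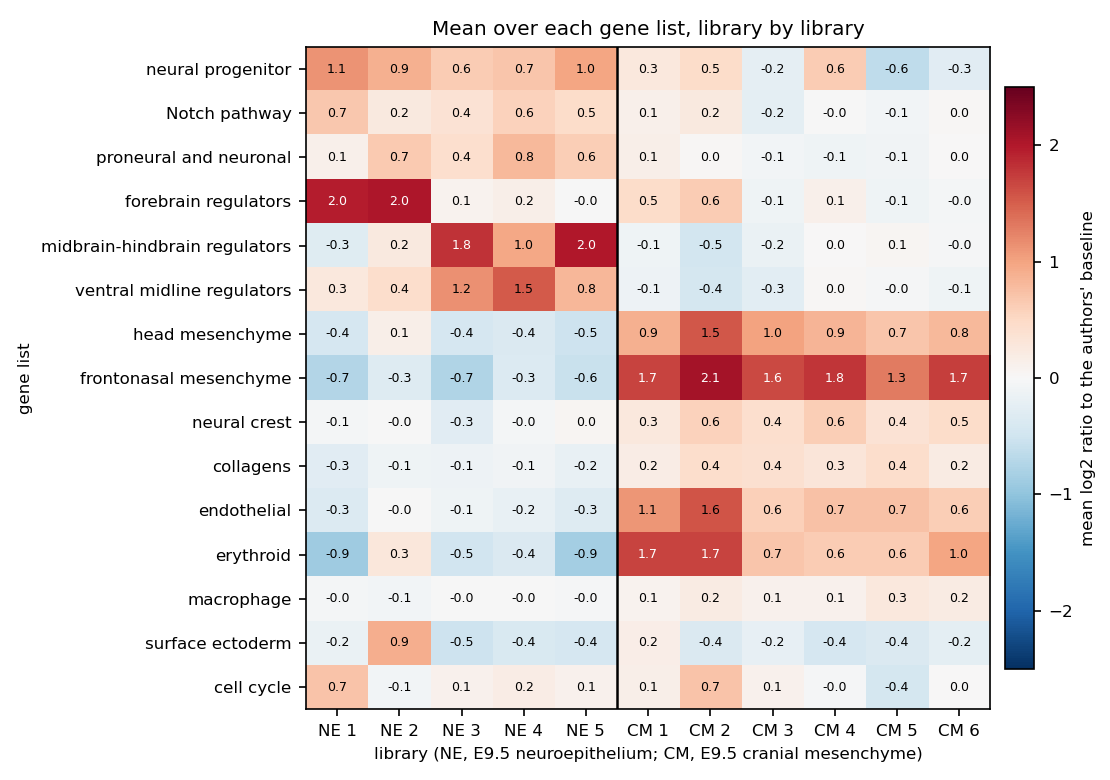
Mean log2 ratio to the authors' baseline (colour and printed value) over the measured genes of 15 lists (y axis) in each library (x axis), neuroepithelium replicates 1 to 5 left of the line and cranial mesenchyme replicates 1 to 6 right of it. The forebrain mean is high in neuroepithelium replicates 1 and 2 (1.96 and 2.01), the midbrain-hindbrain mean in replicates 3, 4 and 5 (1.80, 0.96 and 2.01), and the surface ectoderm mean in replicate 2 (0.90).

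Whether the tissues differed in the same way a day earlier was asked with the E8.5 libraries, which share no sample with those of E9.5. The E8.5 neural side is the mean of caudal, floor plate and non-floor plate captures, and the E8.5 mesenchyme is not labelled cranial. Stage and captured region therefore cannot be told apart here, and a difference between the stages may be one of region. Of the 229 genes called at E9.5, 199 (86.9%) had the same sign at E8.5, against 11508 (57.7%) of all genes. In the same direction, 68 were also called at E8.5, 14 of those higher and 54 of those lower, where 150 (0.752%) of all genes were called higher and 328 (1.65%) lower in E8.5 neural epithelium. Vtn, the adhesion glycoprotein vitronectin, was called in opposite directions, with differences of 1.67 ± 0.42 (SE, adjusted p = 0.017) at E9.5 and -1.96 ± 0.36 (SE, adjusted p = 9.1e-05) at E8.5, and was named after its values were seen. Its E9.5 minus E8.5 difference was 3.63 ± 0.55 (SE, adjusted p = 2.1e-05). Foxc1 differed by -4.36 ± 0.55 at E9.5 and -4.21 ± 0.48 at E8.5, Twist1 by -4.55 ± 0.60 and -4.07 ± 0.53, Inka1 by -5.18 ± 0.68 and -4.55 ± 0.59, and Fgf15 by 2.74 ± 0.41 and 2.55 ± 0.36. The difference between the stages was itself called in 57 of 19938 genes (0.286%), 45 of them (0.226%) higher at E9.5 and 12 (0.0602%) lower. Of these 57, 19 were also called at E9.5.

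Pou3f4 was among those higher at E9.5. It had, at E8.5, a lowest of -0.12, a median of -0.01 and a highest of 0.57 in neural epithelium, against a lowest of -0.11, a median of 0.01 and a highest of 0.09 in mesenchyme, close to baseline throughout. The E8.5 difference was 0.04 ± 0.36 and the E9.5 minus E8.5 difference was 3.88 ± 0.55 (SE, adjusted p = 6e-06). Tal2, in contrast, was above baseline in every E8.5 mesenchyme library too, with a lowest of 0.40, a median of 3.32 and a highest of 5.64 in neural epithelium, against a lowest of 0.15, a median of 2.48 and a highest of 4.47 in mesenchyme. Its E9.5 minus E8.5 difference was 3.80 ± 0.85 (SE, adjusted p = 0.013), and it was not called without neuroepithelium replicate 4 or E8.5 mesenchyme replicate 1 (adjusted p = 0.062 and 0.067).

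Trh, the precursor of thyrotropin-releasing hormone, had 0.77, 0.39, 5.82, 5.57 and 5.93 in E9.5 neuroepithelium, against a lowest of -0.38, a median of 0.05 and a highest of 0.43 in E9.5 mesenchyme. Replicates 3, 4 and 5, those high in midbrain-hindbrain genes, were far above the rest, replicate 2 overlapped the mesenchyme, and the difference was 3.65 ± 0.72 (SE, adjusted p = 0.00072). At E8.5 it had a lowest of -0.15, a median of 0.62 and a highest of 5.89 in neural epithelium, against a lowest of 0.11, a median of 2.63 and a highest of 5.00 in mesenchyme, and the E9.5 minus E8.5 difference was 4.55 ± 0.96 (SE, adjusted p = 0.0056). Nefl, the light neurofilament, was not called at E9.5 (1.56 ± 0.57, adjusted p = 0.29) and was lower in neural epithelium at E8.5 (-2.34 ± 0.50, adjusted p = 0.0011), so that the stages differed by 3.90 ± 0.76 (SE, adjusted p = 0.0019).

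Nrarp, Nkx6-2 and Car4 also had higher differences at E9.5 than at E8.5, by 2.09 ± 0.52 (SE, adjusted p = 0.042), 1.48 ± 0.33 (SE, adjusted p = 0.012) and 3.52 ± 0.79 (SE, adjusted p = 0.013). In the other direction, Sox8, a SoxE factor of crest and muscle progenitors, had -0.39, 0.35, -0.50, -0.20 and 0.00 in E9.5 neuroepithelium, against a lowest of 0.37, a median of 2.33 and a highest of 3.42 in E9.5 mesenchyme, a difference of -2.32 ± 0.35 (SE, adjusted p = 2.4e-06). At E8.5 the difference was 0.02 ± 0.30, and the stages differed by -2.34 ± 0.46 (SE, adjusted p = 0.002). Fitted alone, the E9.5 groups gave no call for Trh or Sox8 (adjusted p = 0.37 and 0.13).

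Klf1 differed by -2.72 ± 0.45 at E9.5 and 0.11 ± 0.39 at E8.5, a stage difference of -2.82 ± 0.60 (SE, adjusted p = 0.0065). Col1a2 differed by -0.51 ± 0.23 at E8.5, a stage difference of -1.61 ± 0.35 (SE, adjusted p = 0.0087). Tac1, the substance P precursor, was higher than in mesenchyme in the mean of the 3 E8.5 neural epithelium groups (2.14 ± 0.55, adjusted p = 0.011). It was not called at E9.5 (-1.79 ± 0.63, adjusted p = 0.23), a stage difference of -3.93 ± 0.83 (SE, adjusted p = 0.006). Fam178b had a stage difference of -2.33 ± 0.46 (SE, adjusted p = 0.0023). Of the 8 genes named by rule for the stage difference, Trh, Nefl, Tal2, Tac1, Klf1 and Fam178b were not called with the compared groups fitted alone. Without the 4 wide libraries neither Tac1 nor Klf1 was called for it (adjusted p = 0.11 for each). The stage differences of Nrarp, Nkx6-2, Car4, Col1a2 and Vtn were not examined in these alternatives.

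**Figure D4:**
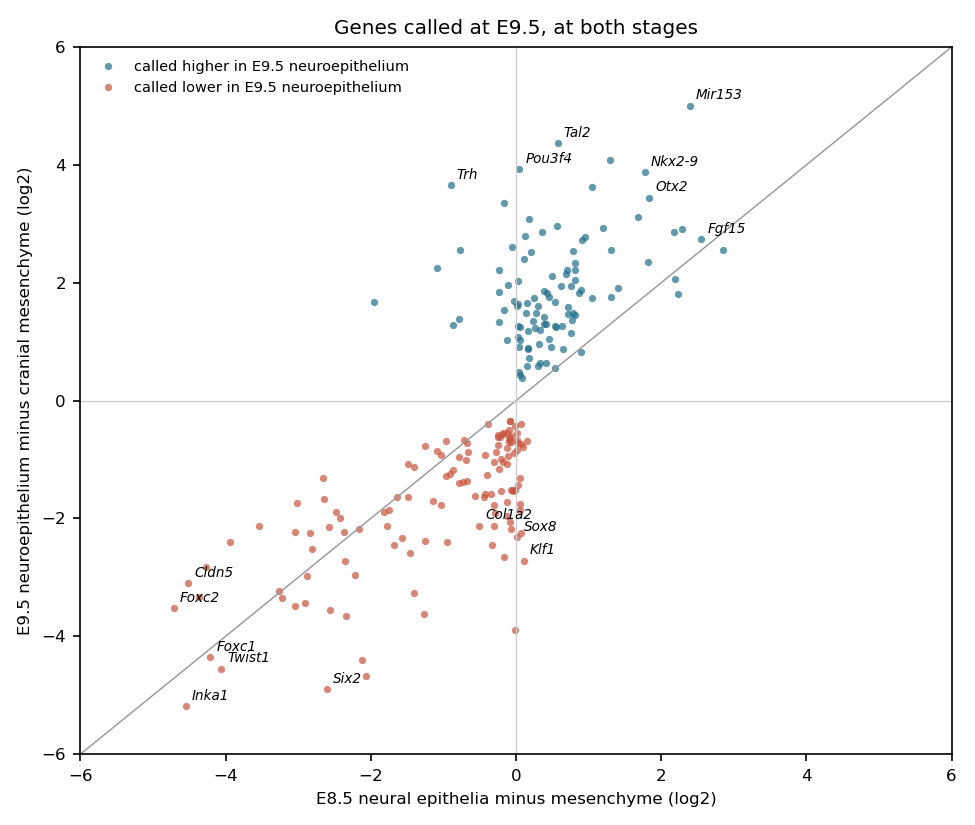
Differences of the 229 genes called at E9.5 (log2): E9.5 neuroepithelium minus cranial mesenchyme (y axis) against E8.5 neural epithelia minus mesenchyme (x axis), with the line of equality. Foxc1 and Twist1 lie near the line, while Pou3f4 is at 3.93 at E9.5 and near 0 at E8.5.

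Across the 22 groups of the series, the mean of E9.5 neuroepithelium ranked highest of all groups for Pou3f4, Ccl19, Trh, Dtx4 and Nkx6-2, and that of E9.5 cranial mesenchyme for Six2, Foxc1, Sox8, Klf1, Col1a2 and Cxcl12. These ranks describe group means and were not tested. Pou3f4 averaged 3.92 ± 0.84 in E9.5 neuroepithelium (SD, n = 5), and its next highest group mean was 1.15, in neuroepithelium under the medial nasal prominence at E10.5. Twist1 and Alx1 did not rank highest there. Alx1 averaged 4.16 ± 1.56 in E9.5 cranial mesenchyme (SD, n = 6), against 5.21 in the E10.5 lateral nasal eminence and 5.34 in the libraries labelled E10.5 mandibular arch.

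**Figure D5:**
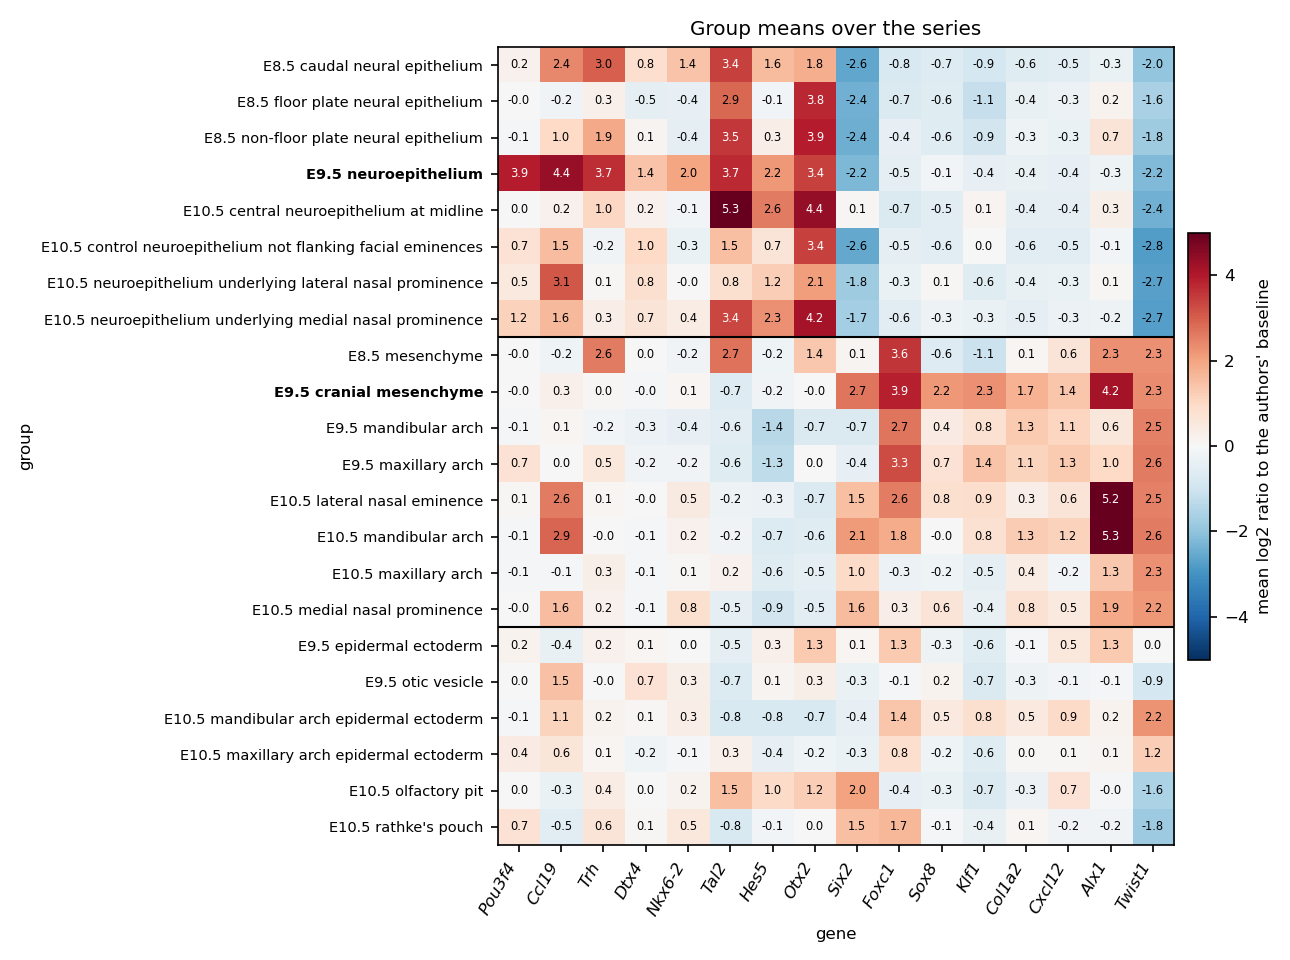
Mean log2 ratio to the authors' baseline (colour and printed value) of 16 genes (x axis) in the 22 groups as labelled (y axis), neural groups above, mesenchymal groups in the middle and other epithelia below, with the 2 groups compared here in bold. Pou3f4 is high in E9.5 neuroepithelium alone among the neural groups, Otx2 is high in most of them, and Foxc1 is high in E9.5 cranial mesenchyme (3.91), E8.5 mesenchyme (3.57), the E9.5 maxillary arch (3.26), the E9.5 mandibular arch (2.67) and the E10.5 lateral nasal eminence (2.55).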

How the data were processed

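The authors deposited 1 table with a linear ratio for each of 35557 probe sets in each sample, of which 28856 had values, made by RMA on genome build mm9 per the submitters' processing notes. The median over 21 libraries of 19 groups, which include 2 of the E9.5 neuroepithelium and 1 of the E9.5 cranial mesenchyme, equals 1 within 6e-08 for all 28856 probe sets. The labels describe no such baseline, so it is known from the values alone. A constant baseline per gene does not alter a difference between groups. The planned design allowed for log2 values, and the log2 of each deposited ratio was taken. Background and detection were not used here, so weak and strong probe sets are treated alike, and the number of arrays limits the precision.

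Probe sets with 1 gene symbol in the platform annotation were kept (21789, while 1621 had several and 5446 none). Where a gene had more than 1 (999 genes), the probe set of highest mean ratio stood for it, which left 19938 genes. Symbols of 21698 probe sets were found in RefSeq by Entrez identifier and 0 were renamed. Groups come from the sample titles. limma 3.58.1 in R 4.3.3 (lmFit, eBayes) was fitted to 102 samples in 22 groups with 80 residual degrees of freedom, and p-values were Benjamini-Hochberg adjusted over all genes. The fit was tested on simulated data. In the 2 groups the median residual SD was 0.239, against 0.310 over all groups. These medians over genes do not hold for each gene. For genes split between the neuroepithelium libraries, such as En2, the pooled standard error does not show the spread within that group. The E8.5 comparison is the mean of the 3 neural epithelium groups minus mesenchyme.

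The members, the 32 gene lists (494 genes, 469 measured) and the tests were chosen with earlier results of these data known. Genes were named by rule: in each direction up to 12 called genes, by size of difference among those without overlap, up to 4 called members of each list in each direction (or the largest difference where none was called), and in each direction up to 4 called genes for the stage difference, passing over predicted genes, small RNAs, olfactory receptors and clustered histones. Genes outside the rule are marked where they are named. RefSeq's promoter table (GRCm38.p6) held a window for 58 of the 78 genes named by rule.

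The alternatives were array weights, quantile normalization, the mean over probe sets, a variance trend, the compared groups alone, arrays of SD over 0.85 left out, each array's 5th percentile as a covariate, a 2-fold minimum, the replicate number as a block, and each library left out in turn. Leaving out the 4 libraries of SD over 0.55, and array weights with the groups alone, were added after the data were seen. Same-numbered replicates of the 2 groups did not deviate together: 0 of 5 pairs had a correlation over 0.1. Across numbers, neuroepithelium replicate 1 had a correlation of 0.54 with 1 mesenchyme library. For neuroepithelium replicates 2 to 5 the highest such correlation was between 0.08 and 0.14. The cause was not tested.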

Additional observations from a re-analysis of the deposited data

Results flagged for a closer look

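In 240 groups of 4 to 10 values tested, 35 had 1 library far from the rest by Dixon's test. Chance flags about 1 in 20 groups of genes chosen without regard to their values. The genes tested include some named after their values were seen, Mir153, Emx2, Six6, Rax, Tfap2c, Pou3f2, Pf4 and Car4 among them. The 35, and the share of any library in them, therefore cannot be set against that rate. Emx2 was at 3.03 in neuroepithelium replicate 1, with the others of its group between -0.07 and 0.61. In neuroepithelium replicate 2, the log2 ratios that stood apart were -0.97 for Inka1, 0.00 for Twist1, 0.59 for Efna1, 0.91 for Aplnr, 0.49 for Lum, 0.86 for Fgf15, 1.55 for Klf1, 1.30 for Alas2 and 2.90 for Tfap2c. Capsl was at 2.67 in neuroepithelium replicate 3, with the others of its group between -0.27 and 0.00. Mir153 was at -0.052 in neuroepithelium replicate 4, with the others of its group between 5.60 and 6.99. In neuroepithelium replicate 5, the log2 ratios that stood apart were 2.38 for Cldn10 and 1.38 for Tac1. Fam178b was at 0.54 in mesenchyme replicate 1, with the others of its group between -0.35 and -0.04. In mesenchyme replicate 2, the log2 ratios that stood apart were 0.56 for Ina, 1.44 for Cntfr, -0.82 for Dbx1, 2.20 for Rarg, 0.59 for Mir153, 2.31 for Six6, 1.04 for Rax, 1.56 for Emx2 and 2.74 for Car4. In mesenchyme replicate 3, the log2 ratios that stood apart were 0.77 for Tfap2c and 1.19 for Col23a1. In mesenchyme replicate 4, the log2 ratios that stood apart were 1.43 for Inka1, 1.88 for Id4, 3.48 for Pou3f2 and -0.53 for Pf4. Cxcl12 was at -0.012 in mesenchyme replicate 5, with the others of its group between 1.39 and 1.86. Tac1 was at 0.73 in E8.5 caudal neural epithelium replicate 4, with the others of its group between 2.96 and 3.30. Fam178b was at 2.74 in E8.5 mesenchyme replicate 4, with the others of its group between -0.20 and 0.62. Klf1 was at -0.62 in E8.5 mesenchyme replicate 5, with the others of its group between -1.28 and -1.10. Klf1 was at -0.18 in E8.5 non-floor plate neural epithelium replicate 5, with the others of its group between -1.12 and -1.06. Neuroepithelium replicate 2 accounts for 9 of the 35. It was the highest of its group for 8 genes that were lower in neuroepithelium or that mark surface ectoderm (Inka1, Twist1, Efna1, Aplnr, Lum, Klf1, Alas2 and Tfap2c) and the lowest for Fgf15.

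In 12 genes named in the text, with Vtn not counted, the difference between neural epithelium and mesenchyme itself differed between E9.5 and E8.5 by the limma test of that contrast. Vtn was called by the same test, higher at E9.5 (3.63). The E9.5 minus E8.5 difference (log2) was higher at E9.5 for Tal2 (3.80), Pou3f4 (3.88), Nrarp (2.09), Nkx6-2 (1.48), Car4 (3.52), Trh (4.55) and Nefl (3.90). It was lower at E9.5 for Col1a2 (-1.61), Klf1 (-2.82), Sox8 (-2.34), Tac1 (-3.93) and Fam178b (-2.33).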

How the results depend on the processing

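The neuroepithelium against mesenchyme comparison called 229 genes. The count was 461 with quantile normalization, 603 with array weights, 68 with the compared groups alone, 132 with the groups alone and array weights, 150 without the 4 libraries of SD over 0.55 and 28 with the groups alone without them. Leaving out 1 library in turn gave 170 (without neuroepithelium replicate 5) to 238 (without mesenchyme replicate 4), with 161 to 200 shared. The stage difference called 57 genes, 86 with quantile normalization, 246 with array weights, 30 with the compared groups alone, and 49 to 75 with 1 library left out. Of calls with the groups alone without the 4 libraries, 17.9% were higher in neuroepithelium, against 45% of the 229. The causes were not tested. The numbers pair no samples by the labels. With the replicate number as a block and the groups alone, 1 gene was called, Foxc1, lower in neuroepithelium. Of 74 called genes named, with Vtn not counted, all were called with quantile normalization, array weights, the variance trend, the mean over probe sets, the covariate and without arrays of SD over 0.85. Of the 11 arrays of SD over 0.85, 0 are in the 2 groups. Leaving them out therefore changes the pooled spread of this comparison and not its differences. Of the 74, 34 were called with the groups alone, 55 without the 4 libraries, and 56 with any 1 library left out. With the groups alone without the 4 libraries 14 of the 74 were called, and with the replicate block 1. Twist1, Alx1, Inka1, Tal2, Hes5 and Nkx2-9 were not called with the groups alone without the 4 libraries. Differences that turned sign were those of genes not called. Krt18 was at -0.30 without the 4 libraries in either fit, against 1.15. With 1 library left out Emx2 ranged from -0.13 (without neuroepithelium replicate 1) to 0.70, Six6 from -0.17 (without replicate 2) to 1.01, Tfap2c from -0.12 (without replicate 2) to 0.73 and Capsl from -0.050 (without replicate 3) to 0.69. Signal over background was not measured here, so dim genes cannot be set aside.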
